A study of Capra hircus with 9 samples.

Results

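The transcripts described here are those of goat embryos made by in vitro fertilization (IVF) that reached 10 FPKM or more in the 2-cell library (IVF-2c), in the 8-cell library (IVF-8c) or in both. FPKM, the number of sequenced fragments scaled to transcript length and to library size, is the abundance measure in which the data were deposited. By this limit 6216 of the 30147 mRNA transcripts and 2640 of the 36240 assembled lncRNA transcripts were members, 8856 of 66387 in all. The 2 libraries belong to a series of 9, of which 1 more is from 8-cell embryos made by somatic cell nuclear transfer (SCNT-8c) and 6 are from transfected fibroblasts. Each embryo library came from 15 pooled embryos and was amplified as cDNA by a low-input method before paired-end sequencing. The IVF embryos were from oocytes of abattoir ovaries that were matured in vitro and then fertilized. IVF-2c and IVF-8c thus differ in developmental stage, and each is represented by 1 library. No difference given here could be set against replicates, so no test was run and no error is given. FPKM is a share of a library: total RNA per embryo was not measured, and in a pool of embryos fewer cells with a transcript and less of it per cell cannot be told apart. Depth per library is unknown because the values were deposited without counts.

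A mammalian embryo starts on RNA and protein that the oocyte stored. During the first divisions these maternal transcripts are deadenylated and degraded, while the embryo's own genome begins to be transcribed, a step called embryonic genome activation (EGA). The stage of the main wave of activation differs between species, and in ruminants it is placed around the 8-cell stage. Embryos at the 2-cell stage are therefore dominated by stored oocyte RNA, and 8-cell embryos hold what remains of it together with the first products of the embryo. The comparison of IVF-8c with IVF-2c asks which transcripts differ across this interval.

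Differences were expressed as the log2 ratio of FPKM + 1 in IVF-8c over IVF-2c. A member was counted as higher or lower when this ratio was above 2 in size, the study's fold limit, which is 4-fold on the FPKM + 1 scale. Where a pair of FPKM values is given for a gene, IVF-2c comes first and IVF-8c second. Of the 6216 mRNA members, 612 (9.85%) were higher in IVF-8c and 261 (4.20%) were lower, while 5343 lay within the limit. Over all 30147 listed mRNAs these shares were 2.92% and 1.19%. The median log2 ratio of all mRNA members was -0.36, and scaling the libraries by median ratios moved the ratios upward by 0.38. Under that scaling 730 mRNA members were higher and 131 lower, so that the higher ones made up 84.8% of those past the limit instead of 70.1%. A member that reached 10 FPKM in only 1 of the 2 libraries had to have a low value in the other, which sets part of these counts. Among the 4217 mRNAs at 10 FPKM or more in both libraries, 149 (3.53%) were higher and 70 (1.66%) were lower. By contrast, 463 of the 769 mRNAs that reached the limit only in IVF-8c were past the fold limit, against 191 of the 1230 that reached it only in IVF-2c.

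The higher and the lower mRNAs differed in shape. The 612 higher mRNAs had a median of 2.06 FPKM in IVF-2c and 43.0 FPKM in IVF-8c, and 58 of them were listed at 0 in IVF-2c. The 261 lower mRNAs had a median of 29.8 FPKM in IVF-2c and 4.46 FPKM in IVF-8c, with 15 listed at 0 in IVF-8c. Their median log2 ratios were 3.48 and -2.32, respectively. Past a log2 ratio of 3 there were 395 higher mRNAs and 38 lower ones, whereas past a ratio of 1 the lower mRNAs were in the majority, with 1435 against 1035 higher. On the deposited scale the distribution thus had a long tail of large positive ratios beside many small negative ones. Under median-ratio scaling the median of the members was 0.01 instead of -0.36, and the limit of 1 was not counted there. In SCNT-8c, which the choice of members did not use, 487 of the 612 higher mRNAs (79.6%) were at 10 FPKM or more, with a median of 26.8 FPKM. The share was about the same among the mRNAs within the limit (4279 of 5343, 80.1%) and was 41.8% among the lower ones (109 of 261). By the rule each higher mRNA was already at 10 FPKM or more in IVF-8c, while 191 of the 261 lower ones were not. The shares in the other 8-cell library are therefore no independent evidence of the direction. At the edge of the member limit, an SP5 transcript (XM_013968933.1) entered with 0.940 and 10.003 FPKM, and a KXD1 transcript (XM_013964978.1) stayed just outside with 9.999 and 8.63 FPKM.

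**Figure D1:**
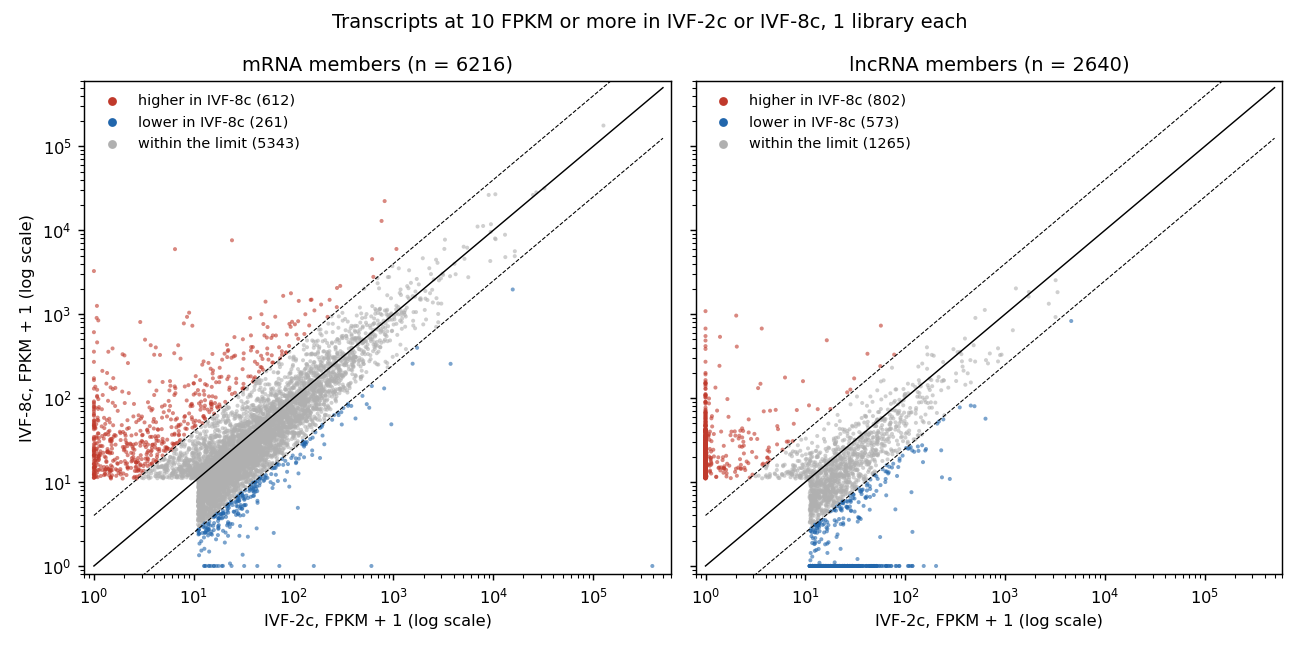
FPKM + 1 in IVF-8c (y, log scale) against IVF-2c (x, log scale) for each mRNA member (left) and lncRNA member (right). The solid line marks equal values and the dashed lines the limit of 4-fold, with 612 mRNAs and 802 lncRNAs above the upper dashed line and 261 and 573 below the lower one. Many lncRNAs lie on the axes, where 1 library is listed at 0.

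A table of RefSeq genes gave a name to 3191 (51.3%) of the mRNA members. The RefSeq predictions without a name held 238 of the higher and 184 of the lower mRNAs, so fewer of the lower ones can be described by gene. To describe genes rather than transcripts, FPKM was summed over the transcripts of each named gene in the table. At the gene level, 2847 named genes reached 10 FPKM in IVF-2c or IVF-8c, of which 316 (11.1%) were higher in IVF-8c and 55 (1.93%) lower, with a median log2 ratio of -0.25. Over all 9222 named genes, without the limit on FPKM, 4.42% were higher and 0.781% lower. The shares of the 2847 genes are the background for each group of genes below.

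The most abundant mRNAs of the embryos were mostly within the limit. TMSB4X, which encodes the actin monomer-binding peptide thymosin beta 4, was at 126723 and 176956 FPKM. The most abundant transcript of PTTG1, the securin that keeps separase inactive until anaphase, was at 32483 and 31592 FPKM. CKS2, a small subunit that binds cyclin-dependent kinases, was at 8985 and 26364 FPKM, within the limit. Among the 116 mRNAs with a mean of 1000 FPKM or more over both libraries, 10 were higher, 4 were lower and the median log2 ratio was -0.04. For the 2497 mRNAs with a mean between 10 and 30 FPKM the median was -0.44. On the deposited scale the median thus lay further below 0 among these less abundant members. Median-ratio scaling, which moved the ratios upward by 0.38, was not applied to these medians. Some of the most abundant mRNAs were past the limit. XM_005686730.2, without a name in the table, was at 815 and 22271 FPKM. The ribosomal protein gene FAU was at 759 and 12915 FPKM and the tetraspanin gene CD81 at 15646 and 1969 FPKM. The highest value of the table was a further exception. XM_013971491.1, without a name in the table, was at 391451 FPKM in IVF-2c, which was 28.05% of the mRNA sum of that library, and it was listed at 0 in both 8-cell libraries. When the libraries were scaled to equal sums without the most abundant mRNA of each, 587 mRNAs were higher and 315 lower.

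Transcription factors that act in the first embryonic lineages were among the largest differences. ARGFX, a homeobox factor of the paired-like class, was at 0.106 and 843 FPKM, with 628 FPKM in SCNT-8c. KLF17, a zinc finger factor of the Krüppel-like family, was listed at 0 in the 2-cell library and was at 87.6 FPKM in IVF-8c, with 46.2 for SCNT-8c. DPPA2, a chromatin protein known from pluripotent cells, was at 0.654 and 34.7 FPKM, with 10.4 for SCNT-8c. These 3 genes were under 1 FPKM at the 2-cell stage. GABPA, the DNA-binding subunit of an ETS-family factor, started from a measurable level, with 12.1 and 126 FPKM (log2 ratio 3.28). EIF1AX, the X-linked translation initiation factor 1A and a gene the study used as a marker of EGA, was at 47.0 and 231 FPKM, with 96.9 for SCNT-8c (log2 ratio 2.27). Of the list of EGA and pluripotency factors, 11 of 46 symbols were matched and 6 reached 10 FPKM. All but NFYC (26.0 and 7.62 FPKM) of these 6 were higher in IVF-8c. The list was drawn up with such results in view and is no independent evidence of its direction. The core pluripotency factors NANOG and SOX2 stayed under 1 FPKM in both IVF libraries, with NANOG listed at 0 in IVF-2c and at 0.139 FPKM in IVF-8c.

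The inhibitors of DNA binding ID1 and ID2 were also higher in IVF-8c. ID2, which sequesters basic helix-loop-helix factors, was at 1.91 and 806 FPKM, with 419 in SCNT-8c. Its relative ID1 was at 4.001 and 66.9 FPKM (log2 ratio 3.76). Both are known targets of BMP signalling. Of the 71 symbols of the TGF-beta, WNT, FGF and NOTCH list 25 were matched and 12 reached 10 FPKM, so most of its ligands and receptors are not described here. Among the 12, ID1 and ID2 were past the limit. The oocyte ligands GDF9 and BMP15 were within the limit, GDF9 at 615 and 293 FPKM and BMP15 at 472.5 and 177 FPKM. BMP4 was at 7.19 and 10.7 FPKM and the receptor ACVR1 at 26.3 and 15.2.

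The lineage genes of the later blastocyst that could be matched were mostly low at both stages. KRT8, a keratin of the first embryonic epithelium, was at 0.217 and 25.8 FPKM, while its partner KRT18 was at 0.592 and 2.26 FPKM. HAND1 was listed at 0 in IVF-2c and at 7.96 FPKM in IVF-8c. The adhesion protein CDH1 (E-cadherin) was at 19.3 and 9.27 FPKM. Of 35 lineage symbols 10 were matched, so most genes of the list are not described here. Only 4 of the 10 reached 10 FPKM, and KRT8 and ID2 were higher.

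**Figure D2:**
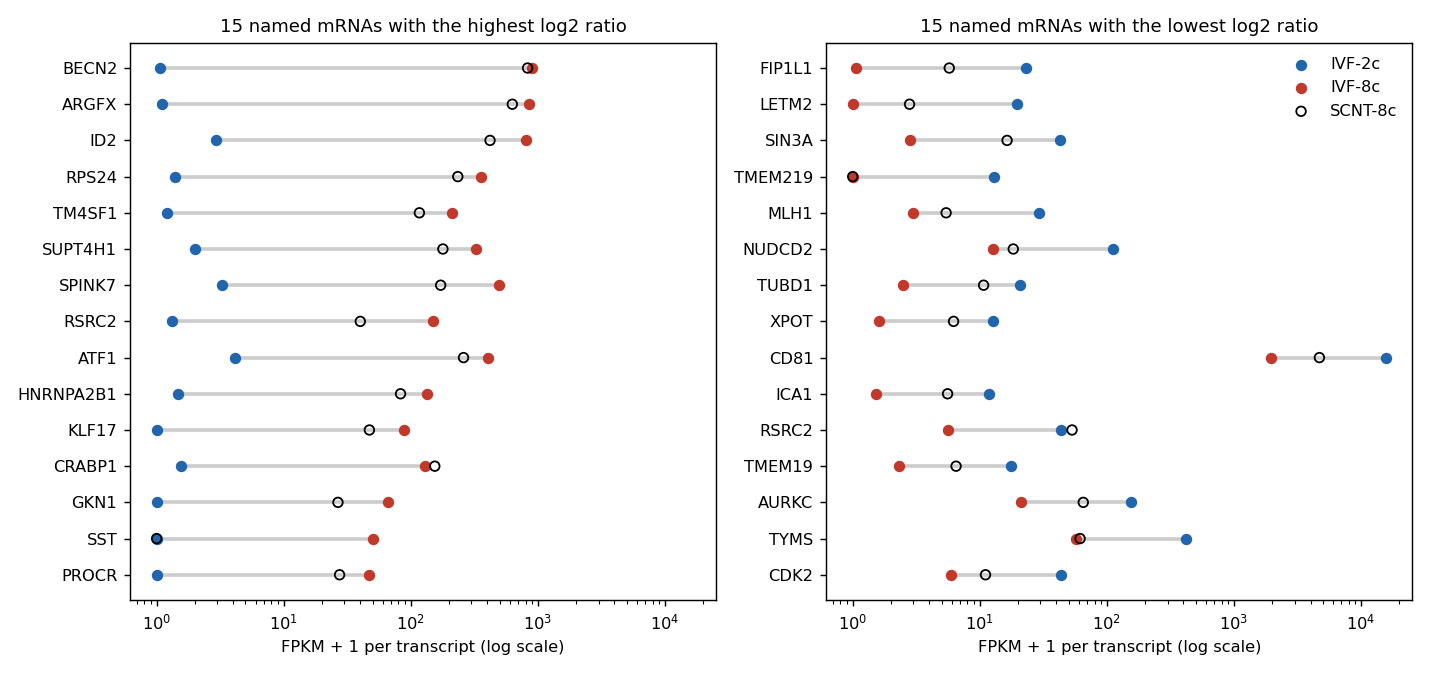
FPKM + 1 per transcript (x, log scale) with IVF-2c in blue, IVF-8c in red and SCNT-8c as open circles for the 15 named mRNAs with the highest (left) and the lowest (right) log2 ratio. Left, IVF-2c values are at or below 3.17 FPKM while IVF-8c reaches 902 FPKM. Right, CD81 stands apart at 15646 FPKM in IVF-2c.

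Beyond the listed factors, the 15 named mRNAs with the highest ratios covered several functions. BECN2, a member of the beclin family of autophagy proteins, led with 0.0652 and 902 FPKM. SUPT4H1, the small subunit of the elongation factor DSIF, which holds RNA polymerase II at pausing and supports elongation, was at 1.02 and 322 FPKM. Its partner SUPT5H was within the limit, at 15.2 and 8.28 FPKM. ATF1, a factor of the CREB family, had 1 transcript at 3.17 and 401 FPKM, and its summed level was 23.7 and 564 FPKM. TM4SF1, a membrane protein with 4 transmembrane segments that the study followed by PCR, summed to 0.214 and 216 FPKM. SPINK7, a protease inhibitor, was at 2.25 and 496 FPKM, and the retinoic acid-binding protein CRABP1 at 0.545 and 127 FPKM. Secreted and surface products were also present. The peptide hormone somatostatin (SST) and the gastric protein GKN1 were listed at 0 in IVF-2c and were at 49.6 and 64.7 FPKM in IVF-8c. The leading transcript of PROCR, the receptor of protein C, was listed at 0 at the 2-cell stage and was at 46.03 FPKM in IVF-8c. SST was the only gene of the 15 listed at 0 in SCNT-8c as well. In CRABP1 alone of the 15 was the SCNT-8c value above that of IVF-8c, at 153 FPKM.

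For some genes the ratio past the limit belonged to 1 transcript among several. An HNRNPA2B1 transcript (XM_005679284.2) was at 0.469 and 133 FPKM, while the whole gene, a splicing and RNA transport factor, was at 58.2 and 447 FPKM. RPS24, a small ribosomal subunit protein, had a transcript (XM_005699248.2) at 0.394 and 356 FPKM against a gene total of 58.8 and 427 FPKM. The serine-arginine-rich protein gene RSRC2 was the 1 gene whose members passed the limit in both directions. Its transcript XM_005691393.2 was at 0.332 and 148 FPKM, while XM_005691390.2 was at 42.5 and 4.66 FPKM, and the gene total was at 166 and 441 FPKM. Among the named mRNAs, 39 of 374 higher transcripts and 21 of 77 lower transcripts belonged to genes whose total stayed within the limit. Such splits rest on how fragments were divided among overlapping transcripts by the authors' estimates.

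Ribosomal protein genes had more genes higher in IVF-8c than any other list by number, though some lists with few genes had a larger share. All 54 matched of the 81 listed cytosolic ribosomal protein symbols were at 10 FPKM or more. Of these, 23 (42.6%) were higher and 0 lower past the limit. The median log2 ratio was 1.75 (between 1.63 and 2.12 under the other scalings). The corresponding shares over the 2847 named genes at 10 FPKM or more were 11.1% and 1.93%, with a median of -0.25. The ratios were uneven across the group. RPL26 was at 46.7 and 998 FPKM (log2 ratio 4.39), RPS27 at 30.04 and 502 (4.02) and RPS26 at 48.8 and 763 (3.94). FAU, which encodes a ubiquitin-like protein fused to ribosomal protein S30, was the most abundant gene of the group in IVF-8c, at 759 and 12915 FPKM. At the other end, RPL27 (486 and 345 FPKM), RPS3 (322 and 245), RPL3 (27.7 and 25.9), RPLP0 (221 and 212) and RPL31 (609 and 601) were the 5 genes with a ratio below 0 on the deposited scale. Their log2 ratios lay between -0.49 and -0.02 and turned positive for RPL3, RPLP0 and RPL31 under median-ratio scaling. Ribosomal protein genes have many near-identical copies in mammalian genomes, so the level of a single gene is uncertain where fragments could be placed on a copy. Median FPKM over the group was 132 in IVF-2c and 511 in IVF-8c. Transcripts that were low among ribosomal proteins in IVF-2c, such as RPL12 (11.96 FPKM) and RPL9 (12.5), reached 93.4 and 141 FPKM in IVF-8c.

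**Figure D3:**
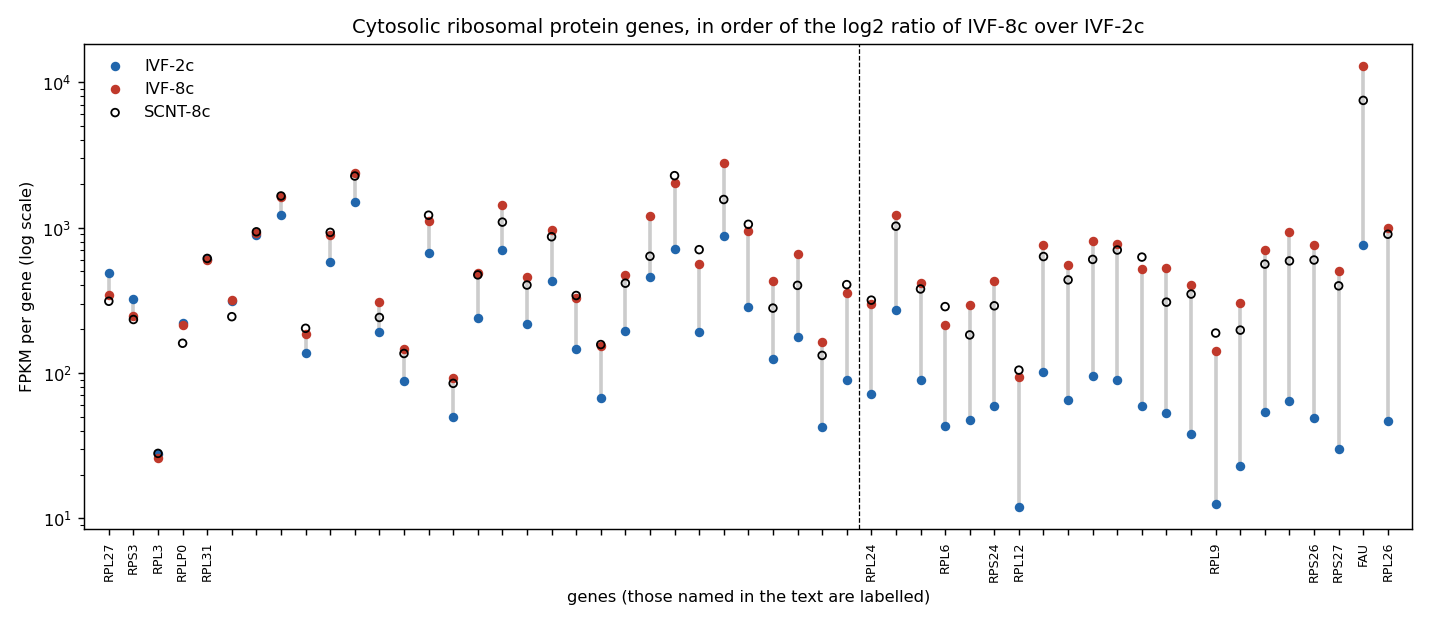
FPKM per gene (y, log scale) of the cytosolic ribosomal protein genes, all but 1 of the 54, with IVF-2c in blue, IVF-8c in red and SCNT-8c as open circles, in order of log2 ratio. The genes right of the dashed line passed the limit, and FAU stands highest at 12915 FPKM in IVF-8c.

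Genes that build ribosomes and start translation had medians above 0, with members in both directions. Of 62 matched genes of ribosome biogenesis, 51 reached 10 FPKM, 7 (13.7%) were higher, near the 11.1% of all named genes at that level, and 0 were lower. The median log2 ratio was 0.56, with 35 genes above 0 and 16 below. NHP2, a protein of the H/ACA RNPs that modify rRNA, was at 17.2 and 229 FPKM (log2 ratio 3.66). NOP10 of the same complex was at 160 and 1108 FPKM (2.78), and WDR12, needed for maturation of the large subunit, at 0.480 and 14.8 FPKM. The nucleolar phosphoprotein NPM1 was abundant throughout, at 1521 and 1846 FPKM. Among 23 translation factors at 10 FPKM or more, 4 (17.4%) were higher and 0 lower, with a median of 0.66, and 7 had a ratio below 0, down to -1.52 for EIF4G3 (70.4 and 23.8 FPKM). The 4 were EIF6, which keeps the large subunit from joining early (28.5 and 372 FPKM, log2 ratio 3.66), EIF1AD (1.145 and 15.7 FPKM), DENR, a factor of reinitiation (17.0 and 83.1 FPKM), and EIF1AX.

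Splicing and transcription genes showed a few large ratios in groups that lay mostly within the limit. The shares of higher genes were 9.68% and 11.8%, near the 11.1% of all named genes at 10 FPKM or more. Of 31 splicing factors at 10 FPKM or more, SRSF3 (50.0 and 557 FPKM, log2 ratio 3.45), HNRNPA2B1 and SF3B5 (188 and 1137 FPKM, 2.59) were higher and 0 were lower. The median was 0.44. MAGOH, a core protein of the exon junction complex, was the most abundant of them at 9467 and 11801 FPKM. Of 34 genes of the RNA polymerase II machinery, 4 were higher and 0 lower, while the median of -0.12 turned to 0.25 under median-ratio scaling. The 4 were SUPT4H1, the Mediator subunit MED31 (11.2 and 249 FPKM, log2 ratio 4.36), the polymerase subunit POLR2I (17.2 and 180 FPKM, 3.31) and HEXIM1, the inhibitor of the elongation kinase P-TEFb (0.348 and 14.07 FPKM). Other subunits of the polymerase such as POLR2J (2986 and 2672 FPKM) and POLR2H (73.3 and 64.1 FPKM) lay close to equality.

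Oocyte products mostly had ratios below 0 that stayed within the limit. The 5 oocyte-secreted and zona pellucida genes at 10 FPKM or more all had a ratio below 0 under each scaling tried, with a median of -1.41. ZP4, a glycoprotein of the egg coat, was at 607 and 139 FPKM (log2 ratio -2.12, and -1.75 under median-ratio scaling), and ZP2 at 682 and 252 FPKM. Of 13 maternal effect genes, 12 had a ratio below 0 and the median was -1.21, but ZAR1 alone passed the limit. ZAR1, an RNA-binding protein of the oocyte needed for the first divisions, was at 202 and 27.2 FPKM, with 30.7 for SCNT-8c (log2 ratio -2.85). The oocyte importin KPNA7 was at 1645 and 678 FPKM, the histone chaperone NPM2 at 470 and 168 and UCHL1 at 1091 and 566. The lower genes were thus 1 of 5 and 1 of 13, beside 1.93% of all named genes at 10 FPKM or more.

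Regulators of the meiotic cell cycle divided. MOS, the kinase that keeps the egg arrested at metaphase II, was at 1724 and 397 FPKM (log2 ratio -2.12, and -1.74 under median-ratio scaling). AURKC, the Aurora kinase of germ cells, was at 210 and 44.2 FPKM (-2.22, and -1.85), and WEE2, the oocyte kinase that holds CDK1 inactive, at 233 and 72.6 FPKM. CDK1 itself was at 91.0 and 321 FPKM (log2 ratio 1.81), and its cyclins CCNB1 and CCNB2 were at 785 and 705 and at 1173 and 433 FPKM. Over the 17 meiotic genes at 10 FPKM or more, 0 were higher, 2 were lower and the median was -0.65. The share of lower genes was 11.8%, beside 1.93% of all named genes at that level. Genes that guide the removal of maternal RNA did not pass the limit in either direction (0 higher and 0 lower of 16). BTG4, the adaptor that brings the CCR4-NOT deadenylase to maternal mRNAs, was still at 7830 FPKM in IVF-8c, against 10551 in IVF-2c. CNOT10 (108 and 28.3 FPKM) and the decay factor ZFP36L1 (94.1 and 23.9 FPKM) came nearest to it, while the uridyltransferase ZCCHC6 (TUT7) was at 12.9 and 42.2 FPKM.

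The lower named mRNAs with the largest ratios came from many functions. CD81, a tetraspanin of the egg surface, was the most abundant of them, at 15646 and 1969 FPKM, with 4699 for SCNT-8c (log2 ratio -2.99). TYMS, thymidylate synthase, was at 416 and 56.2 FPKM (-2.86). SIN3A, the scaffold of a histone deacetylase complex, was at 41.6 and 1.81 FPKM, with 15.4 for SCNT-8c. For several of these transcripts the gene total stayed within the limit. NUDCD2 had a transcript at 111 and 11.7 FPKM, yet its gene total was at 297 and 279 FPKM. The delta-tubulin gene TUBD1 had a transcript at 19.8 and 1.499 FPKM and a total of 34.4 and 43.3 FPKM. FIP1L1, a polyadenylation factor, was led by a transcript at 22.1 and 0.0708 FPKM, with a total of 55.8 and 34.4 FPKM.

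Replication genes past the limit were lower in IVF-8c. Of 37 cell cycle and replication genes at 10 FPKM or more, 0 were higher, and TYMS and RPA3, a subunit of the single-strand DNA-binding complex (154 and 32.8 FPKM), were lower. The share of lower genes was 5.41%, beside 1.93% of all named genes at that level. For RPA3 the ratio of -2.20 became -1.83 under median-ratio scaling. CDK2, which drives entry into S phase, was at 55.1 and 14.2 FPKM as a gene total, and 1 of its transcripts (NM_001285608.1) was at 42.4 and 4.97 FPKM. PCNA, the sliding clamp of replication, was the most abundant of the list and lay the other way, at 2760 and 4092 FPKM. Geminin (GMNN), the inhibitor of origin licensing, was at 437 and 1446 FPKM. GAPDH, a glycolytic enzyme often used as a reference gene, was at 194 and 34.8 FPKM, with 55.6 for SCNT-8c. Its log2 ratio was -2.44. The glucose transporter SLC2A3 was at 2.32 and 25.1 FPKM, and these 2 were the genes past the limit among 7 of glycolysis and glucose transport.

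Stress and redox genes included both directions. DDIT3 (CHOP), a factor induced by endoplasmic reticulum stress, was at 246 and 1661 FPKM, with 828 for SCNT-8c (log2 ratio 2.75). HSPA5 (BiP), the chaperone of that compartment, was at 12.7 and 72.0 FPKM, and thioredoxin (TXN) at 112 and 1439 FPKM (3.68). GADD45A, induced by DNA damage, was at 29.7 and 129 FPKM and HSF2, a heat shock factor, had a log2 ratio of 3.19 from 0.429 FPKM in IVF-2c. The chaperonin subunit CCT5 was the only gene of the group that was lower, at 121 and 27.1 FPKM (-2.12, and -1.75 under median-ratio scaling). In all, 5 of 27 genes (18.5%) were higher and 1 (3.70%) lower, beside 11.1% and 1.93% of all named genes at 10 FPKM or more. The median of -0.16 turned to 0.21 under median-ratio scaling.

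Groups of housekeeping complexes lay near the median of all genes. Among 29 proteasome genes the median was -0.40 and among 32 nuclear-encoded genes of oxidative phosphorylation it was -0.28, which turned to 0.09 under median-ratio scaling. Past the limit were PSMA1 (30.6 and 341 FPKM) and PSMA2 (8.96 and 149 FPKM) among the proteasome subunits, 6.90% higher and 0 lower. NDUFB11 (13.2 and 104 FPKM) and NDUFA2 (75.3 and 361 FPKM) were higher past it among the respiratory chain genes (6.25%), and 1 gene (3.1%) was lower. Of all named genes at 10 FPKM or more, 11.1% were higher and 1.93% lower. Of the histone-modifying enzymes 22 of 82 symbols were matched, 9 reached 10 FPKM and 0 passed the limit, with HDAC3 at 105 and 25.8 FPKM and the acetyltransferase HAT1 at 160 and 428. Of the histone list 2 of 52 symbols were matched, the chaperones NASP (127 and 79.2 FPKM) and ASF1B (138 and 60.0), so histone transcripts are not described here. For DNA methylation 2 of 6 matched genes reached 10 FPKM, GADD45A and TRIM28 (16.6 and 6.61 FPKM).

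**Figure D4:**
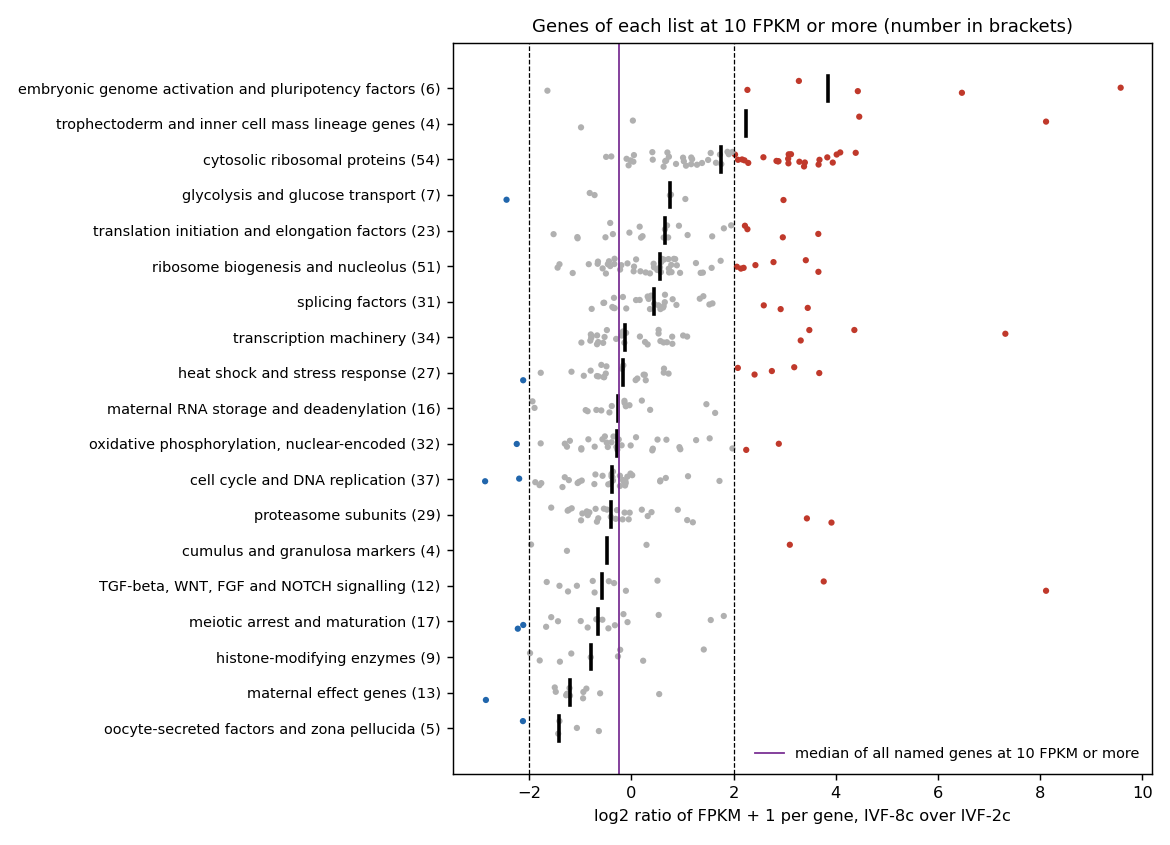
Log2 ratio of FPKM + 1 per gene (x) for the genes of each list at 10 FPKM or more, with black bars at the list medians, the purple line at the median of all named genes (-0.25) and dashed lines at the limit. Ribosomal proteins (median 1.75, 23 genes in red) sit to the right and the oocyte list (median -1.41) to the left.

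Markers of other cells that could be carried along were checked in both libraries. Of the cumulus and granulosa markers, 10 of 20 symbols were matched, with summed levels of 84.9 and 74.95 FPKM. INHA was listed at 0 in both, FSHR was at 0 in IVF-2c, and CYP19A1 was at 0.126 and 0.081 FPKM. The 4 that reached 10 FPKM were STAR (47.2 and 11.4 FPKM), HAS2 (16.7 and 20.7), VCAN (14.9 and 5.64) and TNFAIP6 (2.22 and 26.6). The 5 matched sperm markers did not exceed 3.72 FPKM and the 7 matched leukocyte and red cell markers 1.11 FPKM. Fibroblast markers summed to 164 and 94.7 FPKM over 12 of 15 symbols, most of it from DCN (117 and 56.3 FPKM). FN1 was at 24.4 and 10.7 FPKM. The other 10 stayed under 10 FPKM in both libraries, COL3A1 under 1 FPKM. The part of such cells in the differences above was not tested.

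Among lncRNAs most members past the limit were listed at 0 in 1 library. Of the 2640 lncRNA members, 802 (30.4%) were higher in IVF-8c, 573 (21.7%) were lower and 1265 lay within the limit. Over all 36240 listed lncRNAs the shares were 7.34% and 4.15%. However, 655 of the higher lncRNAs (81.7%) were listed at 0 in IVF-2c and 394 of the lower ones (68.8%) were listed at 0 in IVF-8c. For mRNAs these shares were 9.48% and 5.75%. Since a member listed at 0 in 1 library has 10 FPKM or more in the other, it always passes the limit. Only 770 lncRNAs (29.2%) were at 10 FPKM or more in both libraries, and of these 10 (1.30%) were higher and 38 (4.94%) were lower, with a median log2 ratio of -0.49. On the deposited scale the lower ones past the limit were thus the more numerous among lncRNAs at this level at both stages. Over all lncRNA members and among the mRNAs it was the higher ones. Median-ratio scaling moved the lncRNA ratios upward by 0.46, and the 770 lncRNAs were not recounted under it.

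**Figure D5:**
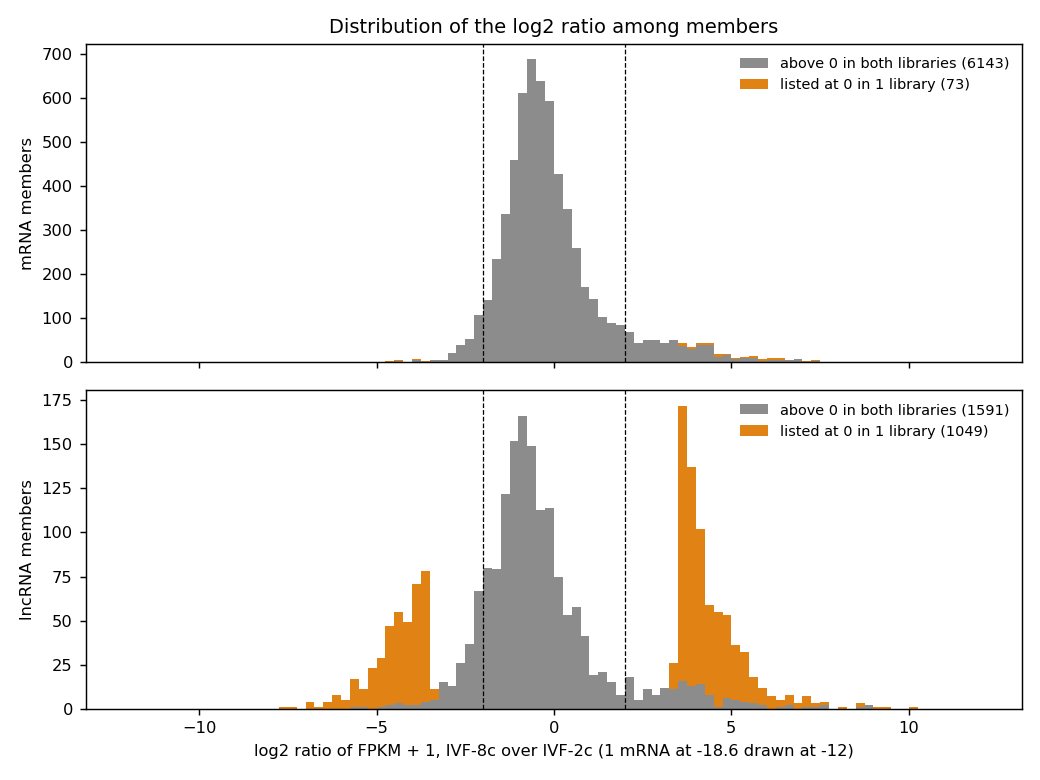
Number of mRNA (top) and lncRNA (bottom) members by log2 ratio of FPKM + 1, IVF-8c over IVF-2c, in steps of 0.25, with transcripts above 0 in both libraries in grey and those listed at 0 in 1 library in orange. Of the lncRNA members 1049 are orange, in outer peaks that the limit of 10 FPKM keeps away from the centre, against 73 of the mRNA members.

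The lncRNAs listed at 0 in 1 library had a further property. In IVF-2c, 276 of the 394 (70.1%) had exactly the same FPKM, as deposited, as at least 1 other lncRNA of that library. In IVF-8c it was 308 of 655 (47.0%). For lncRNA members at 10 FPKM or more in a library and above 0 in the other, the shares were 2.74% in IVF-2c and 2.17% in IVF-8c. The most frequent value was 25.3 FPKM in IVF-2c and 17.8 FPKM in IVF-8c, each shared by 13 lncRNA members. The origin of these repeated values was not tested. In SCNT-8c, 425 of the 802 higher lncRNAs were listed at 0, and 146 (18.2%) were at 10 FPKM or more. Among the 573 lower lncRNAs 356 were listed at 0 there and 101 (17.6%) were at 10 FPKM or more, while of the 1265 within the limit 789 (62.4%) were.

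Among the 10 lncRNAs with the highest ratios the levels in SCNT-8c ranged from 8.20 to 604 FPKM. TCONS_00617831 was at 1.03 and 961 FPKM, with 604 for SCNT-8c, and TCONS_00617830 at 1.06 and 410 FPKM, with 221 for SCNT-8c. TCONS_00440151 was at 0.397 and 536 FPKM, with 219 for SCNT-8c. These 3 were above 0 in all embryo libraries. TCONS_00239198, in contrast, was listed at 0 in the 2-cell library and was at 548 FPKM in IVF-8c, with 8.20 for SCNT-8c. TCONS_00178965 was near 0 at the 2-cell stage and at 485 FPKM in IVF-8c, with 94.5 for SCNT-8c. TCONS_00001101, listed at 0 in IVF-2c, was at 416 FPKM in IVF-8c, with 99.1 for SCNT-8c. Of the 12 lncRNAs that the study took forward, 8 were members and all 8 were higher in IVF-8c, which is how they had been chosen. On the FPKM + 1 scale the log2 ratio of lncRNA3720 (TCONS_00343720) was 6.73, from 0.257 to 133 FPKM.

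Abundant lncRNAs were mostly present at both stages. TCONS_00591854, the most abundant lncRNA of IVF-2c, was at 4599 and 829 FPKM, with 1490 for SCNT-8c (log2 ratio -2.47). It was the 1 lncRNA past the limit among the 8 with a mean of 1000 FPKM or more. TCONS_00388928 was at 3201 and 924 FPKM and TCONS_00601025 at 2741 and 1332 FPKM. TCONS_00564872 led IVF-8c with 2539 FPKM and was at 3209 in IVF-2c, and TCONS_00345351 was at 1283 and 2028 FPKM. The 10 lncRNAs with the lowest ratios were all listed at 0 in IVF-8c. Of these, TCONS_00192891 was at 112 FPKM at the 2-cell stage, with 81.1 for SCNT-8c, and TCONS_00075568 at 117 FPKM, with 27.3 for SCNT-8c, while TCONS_00084106 (117 FPKM) and TCONS_00340885 (108 FPKM) were listed at 0 in SCNT-8c too. TCONS_00593485 and TCONS_00429849 shared 1 value, 86.2 FPKM in IVF-2c. At the edge of the member limit, TCONS_00055675 (10.0009 FPKM in IVF-2c, listed at 0 in IVF-8c) was just inside and TCONS_00054651 (9.9992 and 4.83 FPKM) just outside.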

How the data were processed

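The authors deposited FPKM values per transcript for the embryo libraries. The submitters' processing notes name TopHat2 2.0.12, Bowtie2 2.2.3, Cufflinks 2.1.1 and Cuffdiff. The genome build is not given in the sources used here, and no coordinates are printed. The authors kept lncRNAs by coding-potential filters. The fibroblast table was not used, and 0 columns lacked a sample.

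Members were transcripts at 10 FPKM or more in IVF-2c or IVF-8c. Ratios were log2 of FPKM + 1 (a pseudocount of 1), computed in pandas 2.3.3 and numpy 2.4.6 under Python 3.11.15, with figures drawn by matplotlib 3.10.9. The ratio understates the change of low transcripts. With 1 library per stage no test was run. On a simulated mRNA table without noise, the counting found 200 of 200 transcripts changed exactly 8-fold. This checked the counting only and cannot show which changes could be found in real libraries.

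Accessions, compared without version, were named by the RefSeq genes of assembly ARS1.2 (28911 in the table), which matched 13518 of 30147 mRNAs. The members and the 25 gene lists were chosen with earlier results of these data known. Named transcripts had the largest ratios each way (15 named mRNAs, 5 mRNAs of any kind, 10 lncRNAs) or the highest FPKM, and named genes were those of each list past the limit or most abundant. Protein, promoter and lncRNA sequences were not used here, so the planned description of promoters and proteins was not made. Values of a few single genes are not reported here. Alternatives were other pseudocounts, limits and scalings, and FPKM per gene.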

Additional observations from a re-analysis of the deposited data

How the results depend on the processing

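At the log2 limit of 2, no count of members reversed its balance under another scaling, but other limits moved the counts. With a log2 limit of 1, counted on the deposited scale only, mRNA members were 1035 higher and 1435 lower. For lncRNAs they were 865 and 1006, so the balance turned in both. With a limit of 3 mRNAs were 395 and 38. Per gene, 316 were higher and 55 lower, but this also left out the mRNAs without a name, 238 of the higher and 184 of the lower. The named mRNAs alone were 374 higher and 77 lower before summing. Scaling to equal sums left 144 lower mRNAs and median-ratio scaling 131. For lncRNAs, members at 5 FPKM or more gave 1707 higher and 1018 lower, at 20 FPKM 324 and 278, at a mean of 10 FPKM 329 and 287, and without a filter 2660 and 1505. A pseudocount of 0.1 gave 648 higher and 346 lower mRNAs and 808 and 619 lncRNAs. Of the 96 transcripts and 412 listed genes followed singly, 0 past the limit changed direction under another pseudocount, scaling or choice of transcript. A pseudocount cannot change the sign of a ratio, and the scalings shifted ratios by at most 0.46. Of these settings only the choice of transcript, tried for the listed genes, could thus have turned a ratio past 2. ZP4, MOS, AURKC, RPA3 and CCT5 came within the limit under median-ratio scaling, GADD45A, PNO1 and RPL24 under sums without the most abundant mRNA, and RPL6 by its most abundant transcript. No replicates exist for either stage, and depth is unknown, so none of these differences can be set against the spread between embryos.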

Other observations

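Genes outside the lists, chosen after their values were seen, added other functions to the mRNAs that were higher in IVF-8c. The immediate-early factor FOS was at 0.0543 FPKM in the 2-cell library and 48.03 in IVF-8c, with 15.6 for SCNT-8c. The kinase SGK1 was at 0.0125 and 44.3 FPKM in the same order, with 31.1 for SCNT-8c. TOMM5, a subunit of the mitochondrial import channel, was at 35.7 and 901 FPKM by its main transcript. The gene total of the cold-inducible RNA-binding protein RBM3 was at 61.6 and 346 FPKM, and the calcium-binding protein S100A11 at 77.6 and 1653 FPKM. The tetraspanin CD9 was at 0.0516 and 22.4 FPKM while its relative CD81 was lower.

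Further genes were also chosen after their values were seen. The gut hormone gene GIP was listed at 0 at the 2-cell stage and was at 19.9 FPKM in IVF-8c, with 1.53 for SCNT-8c. The cytokine IL1A was at 0.0537 and 17.97 FPKM. For TAC1, a neuropeptide gene, a transcript listed at 0 at the 2-cell stage was at 25.7 FPKM in IVF-8c, but its gene total was already at 24.9 FPKM before and at 76.3 after, within the limit.

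On the lower side, by gene totals, the chemokine CCL25 was at 447 and 67.1 FPKM, with 173 for SCNT-8c. The DNA polymerase POLM was at 68.5 and 9.29 FPKM, and the hormone gene CRH at 64.9 and 13.8 FPKM.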
